A study of Homo sapiens with 7 samples.

Results

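The 44 genes described here carry out chromosomal DNA replication or repair DNA by homologous recombination and the Fanconi anaemia pathway. They were chosen by name, with earlier results of these data known. They comprise 31 replication genes of the licensing, helicase, clamp, polymerase, nucleotide supply, flap removal and chromatin assembly steps, and 13 repair genes. All 44 were among the 13142 genes of the deposited table and among the 11154 genes tested. The study set ASH1L knockout (KO) lines against BHT-101, the cell line of a human anaplastic thyroid carcinoma from which they were made. ASH1L encodes a histone methyltransferase. The knockouts are 4 single clones with 1 library each. Both ASH1L alleles stop after residue 413 in KO1, after residue 610 in KO2 and after residue 2129 in KO3, while the 2 alleles of KO4 stop after residues 2169 and 2174. The wild-type (WT) group has 3 biological replicates of BHT-101 cells without the edit, WT1 to WT3. All cells were grown in DMEM with serum, and no clone with intact ASH1L was analysed here. An effect of losing ASH1L and an effect of growing a line from a single cell therefore cannot be told apart in any comparison below.

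Replication starts with licensing, in which CDC6 and CDT1 load the MCM2 to MCM7 ring onto DNA. CDC45 and the GINS complex turn the ring into an active helicase, primase and the polymerases copy the strands, and the PCNA clamp, loaded by the RFC complex, holds the polymerases on DNA. The Fanconi core complex marks FANCI and FANCD2 at crosslinked DNA, and BRCA1, BRCA2 and their partners repair the resulting breaks with a homologous copy. Many of these genes are transcribed at the passage into S phase by E2F factors, so their level in a culture is commonly read beside its proliferation.

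The values are log2 RPKM, reads scaled to gene length and library size, on a log2 scale, so levels can be compared between genes. The table gives no read totals, and the depth behind a value is unknown. ASH1L itself had 2.69, 2.54, 2.42 and 3.74 log2 RPKM in KO1 to KO4, against 3.34, 3.30 and 3.22 in WT1 to WT3. It was below WT in KO1 to KO3 and above WT in KO4, so its transcript level does not check the label of KO4. Of 7 thyroid markers, PAX8 alone was in the table, at -5.02 to -1.20 in the clones and -2.97 to -2.23 in WT, below 0 in every library. The keratins KRT8 and KRT18 lay between 5.64 and 7.42 in the clones and between 7.07 and 7.78 in WT. The epithelial cadherin CDH1 had -5.86, 1.96, -2.20 and -2.83 in KO1 to KO4, against 0.47 to 0.78 in WT, and EPCAM had 1.71, 3.88, 3.19 and 1.85, against 2.85 to 3.04 in WT. KRT7 had 5.13 to 6.71 in the clones and 6.22 to 6.60 in WT. The epithelial markers thus differed among the clones, and their part in the results was not tested. Of 8 leukocyte markers, CD3D and CD14 were in the table. CD3D had -7.75 to -0.47 in the clones and 3.05 to 3.39 in WT. The tested genes within 5 Mb of CD3D, on chromosome 11, had median differences from WT of -0.71 to -0.55 over the clones. CD14 had -0.72, -0.17, -1.72 and 1.18 in KO1 to KO4, against -0.32 to 0.49 in WT. The stromal marker LUM had 4.21 to 5.85 in the clones and 5.19 to 5.38 in WT. COL1A1 had -0.09 to 2.86, against 2.02 to 2.21, and PECAM1 was below 0 in every library. The cell content of the cultures was not tested.

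Promoter sequences were read for 39 of the 44 genes (RefSeq, GRCh38.p14, 250 bases before to 50 after the start). The letters sought for E2F were TTGGCGC and, as variants of it, the motif TTCCCGC, also the motif TTCGCGC and finally the motif TTGCCGC. These letters, read on both strands with overlapping matches merged, stood in 29 of them (74.4%). They stood in 13.1% of 27305 promoters and in 21.8% of the 8323 promoters of tested genes. At least 2 separate places were found in 28.2% of the members' promoters, against 1.71% of all promoters and 3.29% of those of tested genes. Replication members held the letters in 22 of 27 promoters and repair members in 7 of 12. A single start was read per gene, so other starts could give other shares, and the contrast was not tested. The CCAAT box was found in 56.4% of the members' promoters, against 35.7% of all and 37.2% of those of tested genes. The letters TTTGAA, the CHR element of many mitotic promoters, were found in 2 of the 39 (5.13%), against 15.4% of all and 9.62% of those of tested genes. In 3 member promoters an E2F match overlapped a CCAAT or TTTGAA match. A match describes the letters and not a bound site. The 4 promoters with the most places, 3 each, are shown because they carry the sequence that most of these genes share. They belong to BLM at chr15:90717096-90717395 (plus strand), LIG1 at chr19:48170295-48170594 (minus strand), MCM3 at chr6:52284693-52284992 (minus strand) and POLA1 at chrX:24693668-24693967 (plus strand). Capitals mark the E2F letters, and each sequence runs 5′ to 3′ along its gene.
BLM: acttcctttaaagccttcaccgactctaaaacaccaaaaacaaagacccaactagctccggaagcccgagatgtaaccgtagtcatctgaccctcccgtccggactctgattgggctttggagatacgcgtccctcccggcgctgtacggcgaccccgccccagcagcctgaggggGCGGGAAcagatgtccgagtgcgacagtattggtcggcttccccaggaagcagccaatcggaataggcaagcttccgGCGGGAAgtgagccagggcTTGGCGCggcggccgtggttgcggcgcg
LIG1: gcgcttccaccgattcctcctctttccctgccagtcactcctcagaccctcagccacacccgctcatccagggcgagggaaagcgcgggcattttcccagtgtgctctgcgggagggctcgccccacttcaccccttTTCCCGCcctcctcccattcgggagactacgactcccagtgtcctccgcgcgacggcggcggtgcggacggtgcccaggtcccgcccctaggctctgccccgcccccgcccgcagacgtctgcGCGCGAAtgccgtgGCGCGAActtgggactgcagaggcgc
MCM3: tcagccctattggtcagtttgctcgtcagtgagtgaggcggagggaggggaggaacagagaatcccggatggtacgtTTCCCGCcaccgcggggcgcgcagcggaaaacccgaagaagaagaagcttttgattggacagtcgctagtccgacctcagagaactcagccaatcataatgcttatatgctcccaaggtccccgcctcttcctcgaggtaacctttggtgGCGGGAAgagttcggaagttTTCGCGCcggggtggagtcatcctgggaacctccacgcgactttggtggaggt
POLA1: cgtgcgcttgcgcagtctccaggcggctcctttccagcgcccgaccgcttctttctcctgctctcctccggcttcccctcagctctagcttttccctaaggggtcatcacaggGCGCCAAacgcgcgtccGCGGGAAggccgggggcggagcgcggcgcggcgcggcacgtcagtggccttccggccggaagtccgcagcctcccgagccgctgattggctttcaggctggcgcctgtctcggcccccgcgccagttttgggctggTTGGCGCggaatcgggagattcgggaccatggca

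The knockout clones taken as 1 group were first set against WT. With limma and Benjamini-Hochberg adjustment over all tested genes, 0 of the 44 passed an adjusted p of 0.05 in KO against WT, where 0.412% of all tested genes passed. A share so low over all genes means that a count of 0 among 44 says nothing particular to them, and it does not show that their levels were equal. At an unadjusted p under 0.05 stood 9 of the 44 (20.5%), against 15.7% of all tested genes. Differences of the 44 genes ran from -0.49 to 0.50 on the log2 scale. Of these, 31 were positive and 13 negative, against 5240 and 5914 over all tested genes. The members' median was 0.11, against -0.02 over all tested genes. The median size of a difference, whatever its sign, was 0.22 for the members and 0.22 for all tested genes. In RNA from whole cultures, a change in the share of cells in S phase and a change in RNA per cell cannot be told apart.

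For 10 of the 44 genes (22.7%) the ranges of the 4 clones and the 3 WT samples did not overlap, against 19.0% of all tested genes. RRM1, RPA2, BRCA2, BRIP1, FANCG and FANCM were above WT and MCM7, RFC2, POLD1 and LIG1 below it. The shares among all tested genes were 8.88% above and 10.1% below. The members' shares were 13.6% and 9.09%. Among the 13 repair genes they were 30.8% and 0%, and among the 31 replication genes 6.45% and 12.9%. None of these differences was tested.

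**Figure D1:**
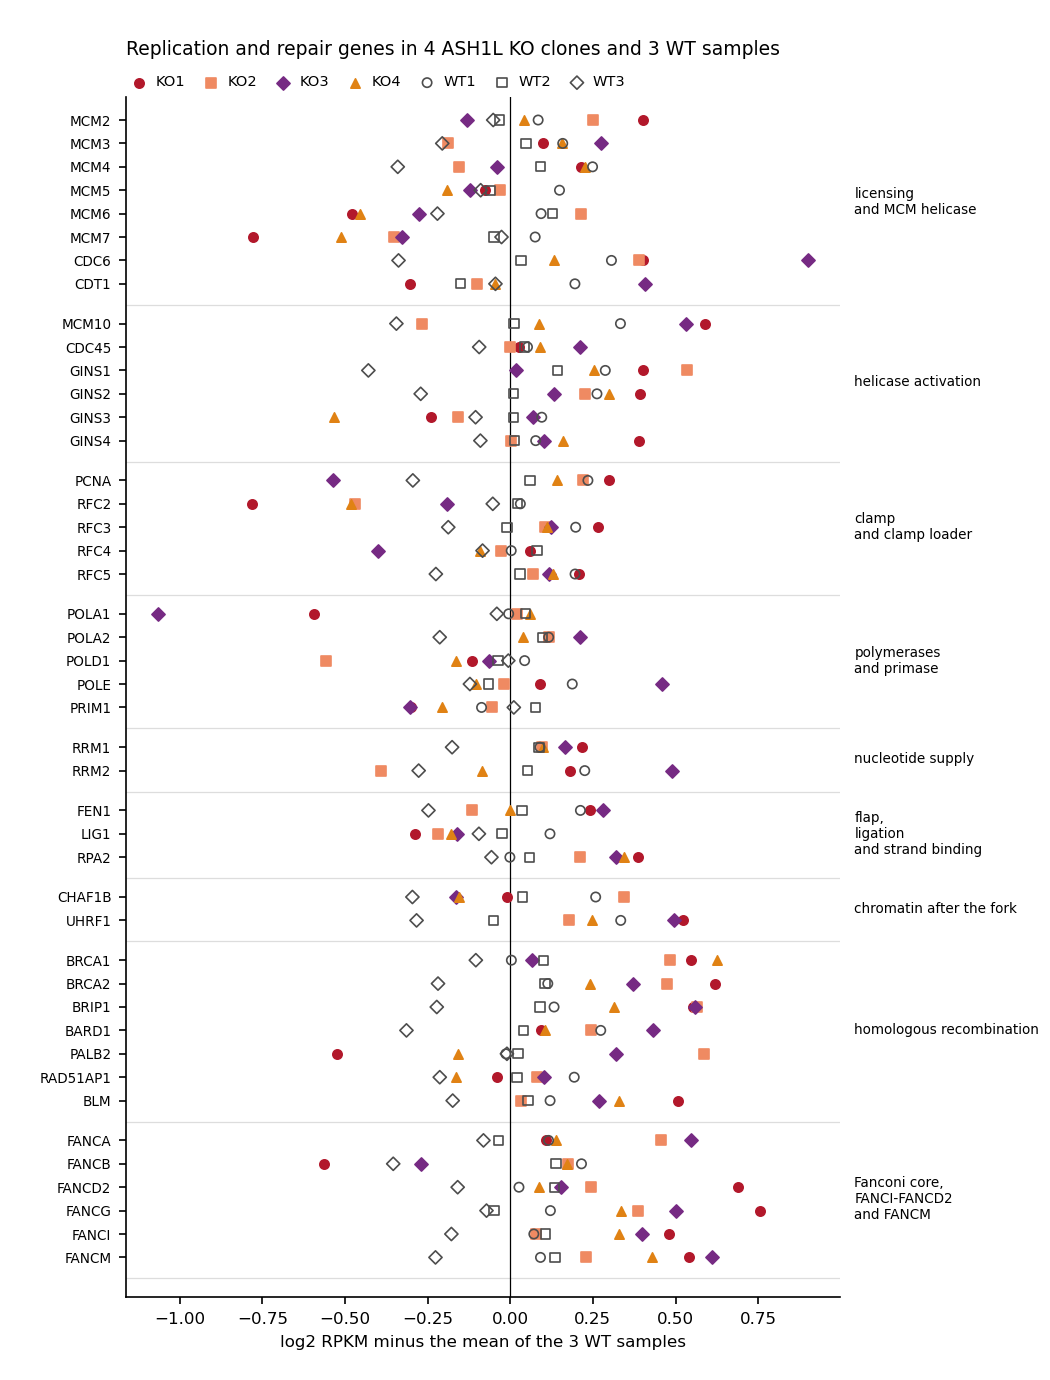
Level of each of the 44 genes in each library, as log2 RPKM minus the mean of the 3 WT samples (horizontal axis), with genes grouped by role down the page, filled symbols for KO1 to KO4 and open symbols for WT1 to WT3. Most repair genes at the foot have filled symbols right of 0, the replication genes lie on both sides, and WT3 is the leftmost WT sample for 39 genes.

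Among the licensing genes, the MCM ring subunits did not shift together. MCM7 had 6.78, 7.21, 7.24 and 7.05 log2 RPKM in KO1 to KO4, against 7.64, 7.51 and 7.54 in WT1 to WT3. All clones were below all WT samples, with means of 7.07 ± 0.21 (SD, n = 4) and 7.56 ± 0.07 (SD, n = 3), a difference of -0.49 ± 0.13 (SE, limma adjusted p = 0.160), or 0.711-fold. The other ring subunits overlapped WT, with differences of 0.14 for MCM2, 0.09 for MCM3, 0.06 for MCM4, -0.11 for MCM5 and -0.25 for MCM6. MCM7 transcripts stood 6.26-fold above those of MCM5 in the clones and 8.19-fold above them in WT, per length, although the proteins share 1 ring. CDC6, which recruits the ring to origins, had the widest range over the clones in this role. It had 4.72, 4.71, 5.22 and 4.45 in KO1 to KO4, against 4.63, 4.35 and 3.98 in WT1 to WT3. KO3 was the highest and the groups overlapped through KO4 and WT1 (difference 0.46 ± 0.22, limma adjusted p = 0.357). CDT1, its loading partner, differed by -0.01.

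In helicase activation, MCM10, which helps start unwinding, had 3.56, 2.70, 3.50 and 3.06 in KO1 to KO4, against 3.30, 2.98 and 2.62 in WT1 to WT3. KO1 and KO3 were above all WT samples and KO2 and KO4 lay within the WT range. CDC45 differed by 0.08, and the GINS subunits by 0.30 for GINS1, 0.26 for GINS2, -0.22 for GINS3 and 0.16 for GINS4. GINS3 had 2.59, 2.67, 2.90 and 2.30 in KO1 to KO4, against 2.93, 2.84 and 2.73 in WT1 to WT3. KO4 was the lowest library and KO3 lay among the WT samples.

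PCNA had the highest WT mean of the 44 genes, 7.58, with MCM7 next at 7.56. It had 7.88, 7.80, 7.05 and 7.73 in KO1 to KO4, against 7.82, 7.64 and 7.29 in WT1 to WT3. KO3 stood below every WT sample and the other clones above WT2 and WT3 (difference 0.03). RFC2, a subunit of the complex that loads PCNA, had 5.05, 5.36, 5.64 and 5.35 in KO1 to KO4, against 5.86, 5.85 and 5.78 in WT1 to WT3. All clones were below WT. The means were 5.35 ± 0.24 in KO (SD, n = 4) and 5.83 ± 0.05 in WT (SD, n = 3), and the difference of -0.48 ± 0.14 (SE, limma adjusted p = 0.186) is 0.716-fold. The other subunits of the loader did not share it: RFC3 differed by 0.15, RFC4 by -0.12 and RFC5 by 0.13. RFC4 had 4.93, 4.84, 4.47 and 4.77 in KO1 to KO4, against 4.87, 4.95 and 4.78 in WT1 to WT3. KO3 was the lowest.

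Among the polymerases, POLA1, the catalytic subunit of polymerase alpha, had 2.93, 3.55, 2.46 and 3.59 in KO1 to KO4, against 3.52, 3.57 and 3.49 in WT1 to WT3. KO1 and KO3 were far below WT, while KO2 and KO4 stood at its level, the widest spread over the clones of the 44 genes. POLD1, the catalytic subunit of polymerase delta, had 3.79, 3.35, 3.84 and 3.74 in KO1 to KO4, against 3.95, 3.87 and 3.90 in WT1 to WT3. All clones were below WT and KO2 was the lowest (difference -0.23 ± 0.14, limma adjusted p = 0.465). POLA2, the partner of POLA1, differed by 0.12, POLE, the leading-strand polymerase, by 0.11 and PRIM1, the primase that lays the RNA primer, by -0.22.

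RRM1 and RRM2 are the subunits of ribonucleotide reductase, which makes deoxynucleotides. RRM1 had 6.15, 6.03, 6.10 and 6.03 in KO1 to KO4, against 6.02, 6.02 and 5.76 in WT1 to WT3. The clones lay narrowly above all WT samples (difference 0.14 ± 0.11, limma adjusted p = 0.532). RRM2 had 6.05, 5.48, 6.36 and 5.79 in KO1 to KO4, against 6.10, 5.92 and 5.59 in WT1 to WT3. KO3 was above and KO2 below all WT samples (difference 0.05).

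RPA2, a subunit of the protein that coats single-stranded DNA, had 5.87, 5.70, 5.81 and 5.83 in KO1 to KO4, against 5.49, 5.55 and 5.43 in WT1 to WT3. Both groups were tight and did not overlap, at 5.80 ± 0.07 (SD, n = 4) and 5.49 ± 0.06 (SD, n = 3), a difference of 0.32 ± 0.09 (SE, limma adjusted p = 0.186), or 1.24-fold. LIG1, the ligase that joins Okazaki fragments, had 2.77, 2.84, 2.90 and 2.88 in KO1 to KO4, against 3.18, 3.04 and 2.97 in WT1 to WT3. All clones were below WT (difference -0.21 ± 0.11, limma adjusted p = 0.374). FEN1, the flap nuclease that acts before LIG1, had 5.70, 5.34, 5.74 and 5.46 in KO1 to KO4, against 5.67, 5.49 and 5.21 in WT1 to WT3. KO1 and KO3 were slightly above WT1 and the groups overlapped (difference 0.10).

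Of the genes that rebuild chromatin after the fork, CHAF1B, a subunit of the histone chaperone CAF-1, had 2.33, 2.68, 2.17 and 2.18 in KO1 to KO4, against 2.59, 2.37 and 2.04 in WT1 to WT3. KO2 was the highest library and the other clones lay within the WT range. UHRF1, which helps to copy DNA methylation, differed by 0.36 (limma adjusted p = 0.362).

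The repair genes had higher differences than the replication genes, and 0 passed the test. Of the 13, 11 had a positive difference and their median was 0.31, against 20 of 31 and a median of 0.08 for replication. A difference above 0.2 was seen in 76.9% of the repair genes, in 19.4% of the replication genes and in 23.1% of all tested genes. The median level relative to the WT mean over the 13 repair genes was 0.51, 0.24, 0.37 and 0.24 in KO1 to KO4, against 0.12, 0.09 and -0.18 in WT1 to WT3. All 4 clones were above all WT samples on this measure. Over the 31 replication genes it was 0.11, 0.00, 0.10 and 0.04 in KO1 to KO4, against 0.15, 0.03 and -0.18 in WT1 to WT3, within the WT range. Part of the contrast went with chromosome position in KO1, KO2 and KO4. With the median difference of the tested genes within 5 Mb subtracted, the repair medians were 0.22, 0.13, 0.40 and 0.16 in KO1 to KO4. The replication medians were then 0.14, 0.04, 0.11 and 0.03. The sets thus lay closer in KO1, KO2 and KO4 and not in KO3, which was highest for repair. The difference between the sets was not tested, and the genes were chosen with earlier results of these data known. Over 30 other recombination and Fanconi genes the median difference was 0.13.

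BRIP1, a helicase that binds BRCA1, had the highest difference of the 44 and also the lowest WT mean. FANCM and BRCA2 had the next lowest WT means. The levels of BRIP1 were 1.39, 1.40, 1.39 and 1.15 in KO1 to KO4, against 0.97, 0.92 and 0.61 in WT1 to WT3. The groups did not overlap, at 1.33 ± 0.12 (SD, n = 4) and 0.83 ± 0.19 (SD, n = 3), a difference of 0.50 ± 0.17 (SE, limma adjusted p = 0.219), or 1.41-fold. BRCA2, a mediator of homologous recombination, had 1.64, 1.49, 1.39 and 1.26 in KO1 to KO4, against 1.13, 1.12 and 0.80 in WT1 to WT3. Every clone was above WT, with KO4 closest to it (difference 0.43 ± 0.17, limma adjusted p = 0.281). BRCA1, which acts early in recombination, had 3.98, 3.92, 3.50 and 4.06 in KO1 to KO4, against 3.44, 3.54 and 3.33 in WT1 to WT3. KO1, KO2 and KO4 were above WT, and KO3 lay between WT1 and WT2 (difference 0.43 ± 0.15, limma adjusted p = 0.251).

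PALB2, the bridge between BRCA1 and BRCA2, differed in direction between the clones. It had 2.16, 3.27, 3.00 and 2.52 in KO1 to KO4, against 2.67, 2.71 and 2.67 in WT1 to WT3. KO2 and KO3 were above and KO1 and KO4 below a WT group with almost no spread (difference 0.05). BARD1, the obligate partner of BRCA1, differed by 0.22, the helicase BLM by 0.28 and RAD51AP1, which aids strand pairing, by -0.01.

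FANCG, a Fanconi core subunit, had 3.92, 3.55, 3.66 and 3.50 in KO1 to KO4, against 3.28, 3.11 and 3.09 in WT1 to WT3. KO1 was the highest and no clone overlapped WT, at 3.66 ± 0.19 (SD, n = 4) and 3.16 ± 0.11 (SD, n = 3), a difference of 0.49 ± 0.13 (SE, limma adjusted p = 0.160), or 1.41-fold. FANCM, the translocase that anchors the core complex, had 1.55, 1.24, 1.62 and 1.44 in KO1 to KO4, against 1.10, 1.15 and 0.79 in WT1 to WT3. KO2 stood just above WT2 and the others further up (difference 0.45 ± 0.17, limma adjusted p = 0.267). FANCB, an X-linked core subunit, had 0.91, 1.65, 1.20 and 1.65 in KO1 to KO4, against 1.69, 1.61 and 1.12 in WT1 to WT3. KO1 was the lowest and the other clones lay within the WT range. Of the pair that the core complex modifies, FANCD2 had 3.48, 3.03, 2.94 and 2.87 in KO1 to KO4, against 2.81, 2.92 and 2.63 in WT1 to WT3. KO1 was far above WT and KO4 was below WT2 (difference 0.29), while FANCI differed by 0.32 (limma adjusted p = 0.313). The core subunit FANCA differed by 0.31.

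**Figure D2:**
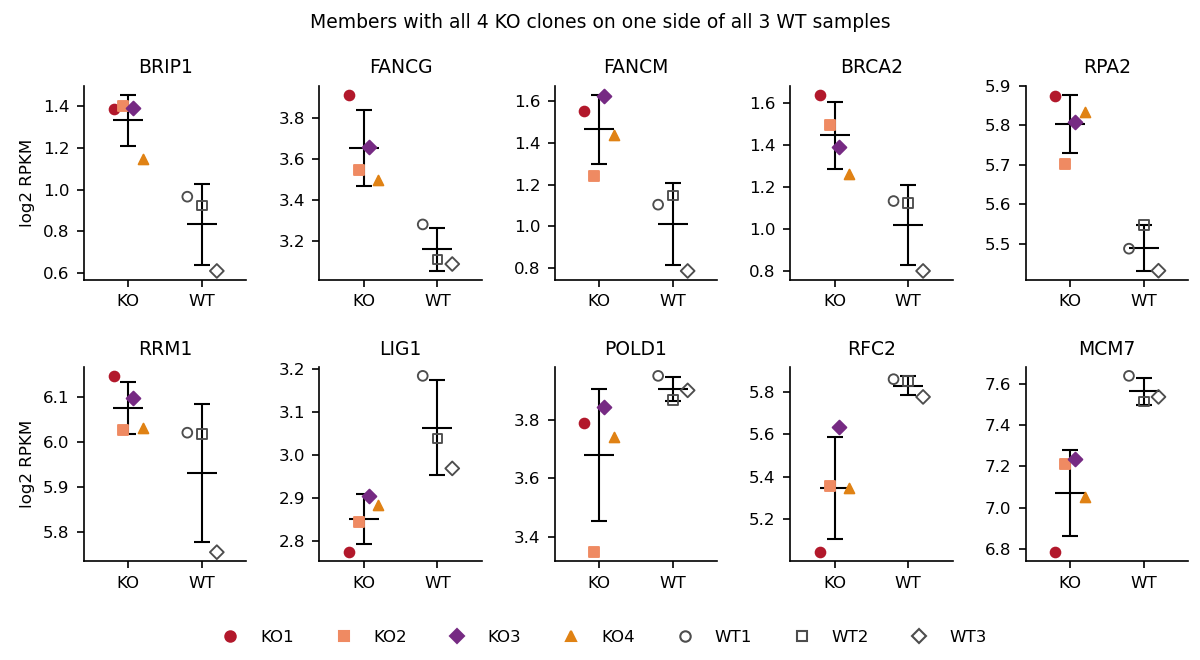
Log2 RPKM (vertical axis, own scale per gene) of the 10 genes whose 4 KO clones (left of each panel, filled) all lie on one side of the 3 WT samples (right, open); the lines are the mean and SD. BRIP1, FANCG, FANCM, BRCA2, RPA2 and RRM1 are higher and LIG1, POLD1, RFC2 and MCM7 lower in the clones, and 0 of the 10 pass an adjusted p of 0.05.

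The WT samples were not alike for these genes. WT3 was the lowest WT sample for 39 of the 44 (88.6%), against 39.5% of all tested genes, and WT1 was the highest for 34 (77.3%), against 32.7%. The median difference of WT1 minus WT3 was 0.30 for the members and 0.00 for all tested genes. The members' median SD was 0.20 over the clones and 0.17 over WT, against 0.30 and 0.10 for all tested genes. The clones varied more than WT for 59.1% of the members, against 90.4% of all tested genes. The share of a knockout difference that rests on WT3 can be seen directly: the members' median difference was 0.04 without WT3 and 0.19 without WT1, against 0.11 with all WT samples. Genes of G2 and M phase were also lowest in WT3.

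Each clone was also set against WT alone, with WT replicates supplying the spread, so that a clone with 1 library is taken to vary as WT does. In KO1, 10 members rose and 5 fell (34.1%), where 19.2% of all tested genes rose and 24.9% fell (44.1%). In KO2, 4 members rose and 3 fell (15.9%), where 15.5% of all tested genes rose and 18.0% fell (33.5%). In KO3, 5 rose and 3 fell (18.2%), against 14.2% and 19.9% of all tested genes (34.1%). In KO4, 2 rose and 3 fell (11.4%), against 10.4% and 14.4% (24.8%). In each clone the members' share was below that of all tested genes, a difference that was not tested. At least 1 clone passed for 21 members (47.7% against 70.5%) and at least 3 clones for 5 (11.4% against 19.3%). These calls rest on the spread of WT: with the spread taken from WT and the other 3 clones together, the calls numbered 2 in KO1, MCM7 and FANCG, and 0 in KO2, KO3 and KO4. Of all 11154 tested genes 524, 0, 36 and 0 then passed, so a count of 0 in KO2 and KO4 says nothing particular to the members. Without WT2, 6, 2, 1 and 1 members passed in KO1 to KO4, beside 3088, 1743, 1706 and 1153 of all tested genes. Without WT1 it was 23, 11, 14 and 5, beside 5006, 3794, 4015 and 3000. Without WT3 it was 19, 12, 17 and 6, beside 5833, 4867, 4906 and 3972. In KO1 without WT1, the members' share was thus above that of all tested genes.

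Which genes passed differed between clones. In KO1, FANCG rose by 0.76 ± 0.12 (SE, limma adjusted p = 0.00330) and FANCD2 by 0.69 ± 0.14 (adjusted p = 0.00884), while RFC2 fell by 0.78 ± 0.09 (adjusted p = 0.00105) and MCM7 by 0.78 ± 0.10 (adjusted p = 0.00140). BRCA2, BRIP1, BRCA1, BLM, FANCI, MCM2, GINS4 and RPA2 also rose there, and MCM6, PALB2 and POLA1 fell. In KO2, PALB2 rose by 0.58 ± 0.11 (limma adjusted p = 0.00892) and POLD1 fell by 0.56 ± 0.10 (adjusted p = 0.00841), with BRCA1, FANCA and FANCG also higher and RFC2 and MCM7 lower. In KO3, CDC6 rose by 0.90 ± 0.23 (limma adjusted p = 0.0261) and POLA1 fell by 1.06 ± 0.10 (adjusted p = 8.99e-04), with FANCM, FANCA, FANCG and RPA2 also higher and RFC4 and MCM7 lower. In KO4, BRCA1 rose by 0.63 ± 0.12 (limma adjusted p = 0.0118) and RPA2 by 0.34 ± 0.10 (adjusted p = 0.0438), and GINS3, MCM7 and RFC2 fell. MCM7 was the 1 member that passed in all 4 clones in the same direction, which 3.43% of all tested genes did. PALB2 passed in opposite directions in KO1 and KO2.

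Each member was set beside the median difference of the other tested genes within 5 Mb. The 44 genes lie on 20 chromosomes. Across the 44, Pearson's r between a member's difference and that of its neighbours was 0.754, 0.502, 0.672 and 0.527 for KO1 to KO4. Over 10651 genes with enough neighbours it was 0.256, 0.323, 0.325 and 0.267 in the same order. Genes of a clone share its library, and neighbouring windows overlap, so these are descriptions. Of the members that passed, 14 of 15, 6 of 7, 8 of 8 and 4 of 5 in KO1 to KO4 had the sign of their neighbours, against 76.7%, 75.2%, 79.0% and 71.9% of all genes that passed there. Some of these neighbours were close to 0, as for RPA2 in KO1 and GINS3 in KO4. With neighbours beyond 0.2 in the same direction the counts were 9 of 15, 5 of 7, 4 of 8 and 2 of 5, against 50.2%, 38.4%, 47.9% and 35.8% of all genes that passed. The difference between members and other genes was not tested.

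MCM7, on chromosome 7 (hg38, 100092728 to 100101940, minus strand), stood beside neighbours with medians of -0.70, -0.22, -0.28 and -0.33 in KO1 to KO4, beside its own -0.78, -0.35, -0.33 and -0.51. POLA1, on chromosome X (24693919 to 24996986, plus strand), had neighbours at -0.82 in KO1 and -0.89 in KO3, where it fell by 0.59 and 1.06. FANCG, on chromosome 9 (35073835 to 35080016, minus strand), had neighbours at 0.53 in KO1 and 0.39 in KO2, beside its own 0.76 and 0.39. In KO3, where FANCG also passed, they were at 0.10 beside its own 0.50. BRCA1, on chromosome 17 (43044295 to 43170245, minus strand), had neighbours at 0.37, 0.36 and 0.32 in KO1, KO2 and KO4, where BRCA1 differed by 0.55, 0.48 and 0.63. In KO3 its neighbours were as high, at 0.37, while BRCA1 differed by 0.07. PALB2, on chromosome 16, had neighbours at -0.42 in KO1 and 0.20 in KO2, beside its own -0.52 and 0.58. With the median of the neighbours subtracted from every gene, PALB2 differed by -0.10 in KO1 and 0.39 in KO2.

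RFC2, also on chromosome 7 (74231499 to 74254458, minus strand), lay apart from its surroundings. Its neighbours had medians of 0.02, 0.04, 0.12 and 0.02 in KO1 to KO4, while its own differences were -0.78, -0.47, -0.19 and -0.48. When the median of the neighbours was subtracted from every gene, MCM7 passed in no clone and its difference in KO against WT was -0.11 (limma adjusted p = 0.548). RFC2 passed in all 4 clones, at -0.81, -0.52, -0.32 and -0.50 (limma adjusted p = 0.00112, 0.00990, 0.0432 and 0.0124), which 1.95% of genes did. Its difference in KO against WT was then -0.54 (limma adjusted p = 0.177), and 0 members passed in that comparison, where 0.00939% of genes did. After this step 4, 4, 3 and 2 members passed in KO1 to KO4, against 31.2%, 26.2%, 24.2% and 18.1% of genes. RPA2 in KO1, whose neighbours were at 0.00, and FANCM in KO3, whose neighbours were at 0.04, were among them.

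**Figure D3:**
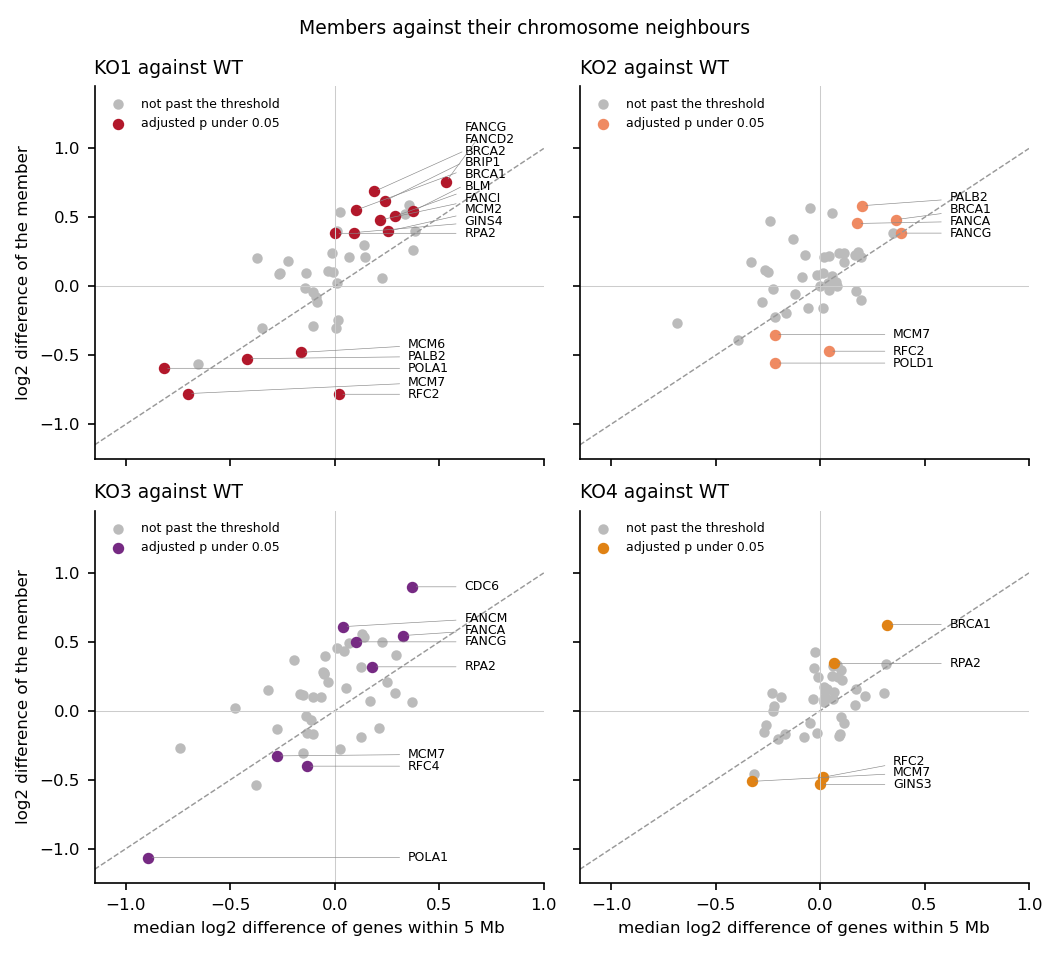
Log2 difference from WT of each of the 44 genes (vertical axis) against the median log2 difference of the tested genes within 5 Mb of it (horizontal axis), 1 panel per KO clone, with coloured and named points past a limma adjusted p of 0.05 and the dashed line at equality. MCM7 and POLA1 lie near the line in KO1 and KO3, and RFC2 lies well below it in KO1, KO2 and KO4.

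Related genes outside the 44 were taken from 5 further lists, and 0 of them passed the limma test in KO against WT. Over all 11154 tested genes, 5240 had a positive difference and 15.7% stood at an unadjusted p under 0.05, and the lists were not tested against these. Of 37 other replication factors, 25 had a positive difference (median 0.07) and 7 stood at an unadjusted p under 0.05. POLD4, a small subunit of polymerase delta, was the furthest down at -0.96 ± 0.21 (SE, limma adjusted p = 0.105), and TICRR, an origin-firing factor, had 0.61 ± 0.18 (adjusted p = 0.186). Of 30 other recombination and Fanconi genes 22 were positive (median 0.13, 7 at an unadjusted p under 0.05). Among them MRE11, a nuclease that opens break ends, had -0.65 ± 0.13 (limma adjusted p = 0.0920) and FANCF, a core subunit, 0.50 ± 0.13 (adjusted p = 0.148). Both are on chromosome 11. The neighbours of MRE11 had medians between -0.89 and -0.72 over the clones, beside its own -0.78 to -0.48. Those of FANCF had medians of 0.44, 0.45, 0.39 and 0.25 in KO1 to KO4, beside its own 0.65, 0.56, 0.40 and 0.37. Of 10 other nucleotide supply genes 4 were positive (median -0.01, 0 at an unadjusted p under 0.05), with -0.20 for the kinase NME1 and -0.30 for TYMS, thymidylate synthase.

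Of 26 genes of E2F, RB and the passage from G1 to S, 20 were positive (median 0.17, 5 at an unadjusted p under 0.05). CCNE2, an S phase cyclin, had 0.65 ± 0.23 (limma adjusted p = 0.236) and TFDP2, a partner of E2F factors, 0.72 ± 0.26 (adjusted p = 0.259). Of 22 genes of G2 and M phase 19 were positive (median 0.20, 3 at an unadjusted p under 0.05). TOP2A had 0.47 ± 0.11 (limma adjusted p = 0.134) and BIRC5 0.43 ± 0.12 (adjusted p = 0.166), both on chromosome 17. The neighbours of TOP2A had medians of 0.30 to 0.39 over the clones, beside its own 0.33 to 0.58. Those of BIRC5 had 0.16 to 0.33, beside its own 0.31 to 0.58. The part of position in these differences was not tested. The median level of the G2 and M genes relative to the WT mean was 0.49, 0.02, 0.08 and 0.20 in KO1 to KO4, against 0.11, 0.08 and -0.16 in WT1 to WT3. KO1 was the highest library and WT3 the lowest, as they were for the repair genes.

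**Figure D4:**
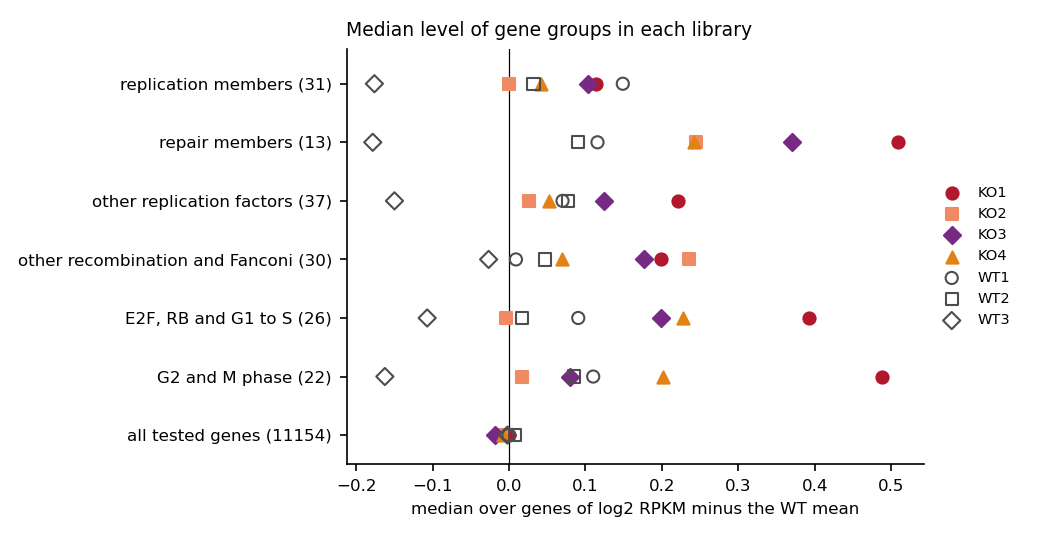
Median over the genes of each group (number of genes in parentheses) of log2 RPKM minus the WT mean, with filled symbols for KO1 to KO4 and open symbols for WT1 to WT3. For the repair members all clones lie right of all WT samples, for the replication members they lie within the WT range, and WT3 is leftmost in the 6 gene groups shown above that of all tested genes.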

How the data were processed

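Total RNA, treated with DNase, went into TruSeq RNA libraries, per the labels. The authors deposited 1 table of log2 RPKM with 13142 genes in 7 libraries. The submitters' processing notes name build hg38, edgeR and HTSeq 0.11.2, and also STAR 2.5.3a and Trim Galore 0.4.1. The prior count, annotation and strand setting are not given in the sources used here, so overlapping genes may share reads. The columns carry numbers, which the sample descriptions tie to the libraries.

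The 44 genes, the related lists and the rule for named genes were chosen with earlier results of these data known. Genes with log2 RPKM above 0 in at least 3 libraries were kept, and no pseudocount was added. limma 3.58.1 in R 4.3.3 (variances moderated with a trend, adjusted p under 0.05) compared the 4 clones with the 3 WT samples, and each clone with WT. A difference is KO minus WT, and ± beside it is its SE. Positions came from GENCODE 29 for 95.4% of the genes, and neighbours are tested genes within 5 Mb, at least 10 of them. Full values by library were given for genes with groups that do not overlap, for the widest range over the clones in each role and for the 2 largest differences per direction in each clone.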

Additional observations from a re-analysis of the deposited data

Results flagged for a closer look

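Among the 44 genes, each with 4 clones, 2 had a clone that stood apart from the other 3 by Dixon's criterion, and chance sets about 1 in 20 groups apart in this way. RFC3, a clamp loader subunit, had 4.97 log2 RPKM in KO1, and the gap to the nearest clone was 0.88 of the range over the clones. BRIP1 had 1.15 log2 RPKM in KO4, below the other clones by 0.947 of the range, and still above all WT samples.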

How the results depend on the processing

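In KO against WT, 0 members passed under every alternative tried. The members' median difference was 0.11, with 0.177 after quantile normalization and 0.04 to 0.188 when 1 library was left out. The single-clone counts of 15, 7, 8 and 5 in KO1 to KO4 became 2, 0, 0 and 0 with the spread taken from WT and the other clones, and 4, 4, 3 and 2 after position centring. Over all tested genes 524, 0, 36 and 0 passed with that spread, and 31.2%, 26.2%, 24.2% and 18.1% after position centring. Without the variance trend KO3 had 5 members, beside 3430 of 11154 tested genes. With 1 WT sample left out the member counts ran from 6 to 23 in KO1, 2 to 12 in KO2, 1 to 17 in KO3 and 1 to 6 in KO4. Those over all tested genes ran from 3088 to 5833, 1743 to 4867, 1706 to 4906 and 1153 to 3972 in the same order. Fewer samples then set the spread. Position centring turned 3 differences round, among the single-clone calls and the 22 genes followed in KO against WT, those of POLA1 in KO1 (0.239), FANCG in KO2 (-0.007) and MRE11 in KO against WT (0.174). Over all 44 members in KO against WT it turned 4 round, to 0.03 for POLA1, 0.20 for FANCB, -0.02 for CDC45 and 0.09 for RAD51AP1. Of the 385 single-clone differences recomputed, 282 kept their direction and call and 101 lost the call. TOP2A passed after quantile normalization (0.566, limma adjusted p = 0.0473) and TFDP2 without KO3 (0.961, adjusted p = 0.0494).

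Over all tested genes, the 46 that passed in KO against WT became 114 after quantile normalization (56.1% of them higher in KO, against 41.3%), 75 with log2(RPKM + 1), 1 after position centring, 0 without any 1 of the WT samples, 236 without KO2, 87 without KO3 and 1 without KO4. The cause was not tested. Same-numbered KO and WT libraries did not deviate together (correlations of 0.06, 0.066 and -0.012). The KO numbers name clones, and a pairing was not tested otherwise. With the replicate number as a block, 0 members passed, 3 stood at an unadjusted p under 0.05, their median difference was 0.142 and 0 genes passed in all.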
